A study of Mus musculus with 22 samples.

Results

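The SLAM family of leukocyte receptors and the SAP family of adaptors were followed across mouse cells and tissues as 10 named genes: the receptor genes Slamf1, Slamf6, Slamf7, Slamf8, Slamf9, Ly9, Cd48 and Cd84, and the adaptor genes Sh2d1a (SAP) and Sh2d1b1 (EAT-2A). All 10 were found among the 20674 protein-coding genes of the deposited tables. The measurement was RNA-seq of polyadenylated transcripts, made beside chromatin accessibility data that were not analysed here. There were 22 libraries in 22 groups of 1. A further 21 genes of the same signalling pathway were read beside the members.

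The B cell groups were CH12 cells (a B lymphoma line, clone bc5, and so 1 clone), 6 activated cultures labelled aBCD180, aCD40+IL4, LPS+IL21, LPS+IL4, LPS+a-d-dextran and LPS, and splenic B cells. LPS is lipopolysaccharide, a bacterial stimulus of B cells, and IL4 and IL21 are helper T cell cytokines. The labels do not expand a-d-dextran or aBCD180. Per the labels, mature B cells came from spleens of C57BL/6J mice by negative selection. The T cell groups were CD4+ cells activated with the mitogen concanavalin A (ConA), and 4 populations each present as a MUT and an unmarked library. These were follicular regulatory cells (Tfr, sorted as CD44+CXCR5+PD1+CD25+), follicular helper cells (Tfh, gates not stated), activated non-Tfh cells (sorted as CD44+ and negative for CXCR5, PD1 and CD25) and CD4+ T cells. The labels do not say what MUT is, nor give the strain, age or sex of the T cell, basophil and tissue donors. The remaining groups were basophils, back skin, putamen, medulla oblongata and sensorimotor cortex. Nothing in the labels says that 2 libraries are from different animals, and the p-values given here therefore measure the spread between samples alone, and that spread may be technical.

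SLAM family receptors are immunoglobulin superfamily proteins of blood cells. Most bind the same receptor on a neighbouring cell, and CD48 instead binds CD244 (and, in rodents, CD2). In family members with cytoplasmic tyrosine motifs, the motifs recruit SAP, a small protein made of an SH2 domain, which brings in the kinase FYN. Without SAP the same motifs recruit the phosphatases SHP-1 and SHP-2 and the lipid phosphatase SHIP-1. SAP in T cells is needed for lasting contact with B cells in the germinal centre, and loss of its human gene causes X-linked lymphoproliferative disease. EAT-2 proteins fill a related place in natural killer and myeloid cells.

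In the RefSeq annotation of GRCm38.p6, Ly9, Slamf7, Cd48, Slamf1, Cd84 and Slamf6 lie with Cd244 (Cd244a in RefSeq) at chr1:171558718-171948958, a stretch of 390.2 kb. Of genes listed as protein-coding it holds 7 of the SLAM family and 1 other, Tma7-ps, named as a pseudogene. Genes of other types were not counted. Slamf9 (chr1:172458569-172478421) and Slamf8 (chr1:172581377-172590873) follow on the same chromosome, and Sh2d1b1 (chr1:170277318-170286769) precedes them. Sh2d1a lies apart at chrX:42502565-42522097. RefSeq windows of 300 bases around the annotated transcript start were matched for 8 of the 10 members. The windows of Slamf6, Slamf7, Slamf1 and Slamf9 are shown because, of the receptor genes that reached 1 TPM there, these 4 had the largest ratios of highest to lowest TPM over the 6 activated B cultures. They are given 5′ to 3′ on the gene's strand (GRCm38.p6), and capitals mark matches on either strand to AGGAAG (an ETS core), TGTGGT (RUNX), TGANTCA (AP-1), CAGCTG (an E-box), and TTC and GAA with a gap of 3 or 4 bases (STAT).
Slamf6, chr1:171917212-171917511, plus strand: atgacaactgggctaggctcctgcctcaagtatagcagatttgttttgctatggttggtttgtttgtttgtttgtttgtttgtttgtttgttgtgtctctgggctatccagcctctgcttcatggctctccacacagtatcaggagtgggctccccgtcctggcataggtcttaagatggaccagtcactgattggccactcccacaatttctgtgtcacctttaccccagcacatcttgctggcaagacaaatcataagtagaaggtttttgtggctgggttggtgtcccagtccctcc
Slamf7, chr1:171648950-171649249, minus strand: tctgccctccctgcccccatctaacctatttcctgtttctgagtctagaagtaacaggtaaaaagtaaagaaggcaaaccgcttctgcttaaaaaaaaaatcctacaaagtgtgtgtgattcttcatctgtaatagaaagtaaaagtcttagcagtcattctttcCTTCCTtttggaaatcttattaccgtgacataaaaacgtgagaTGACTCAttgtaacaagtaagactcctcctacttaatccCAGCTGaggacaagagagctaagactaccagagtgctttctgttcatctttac
Slamf1, chr1:171766882-171767181, plus strand: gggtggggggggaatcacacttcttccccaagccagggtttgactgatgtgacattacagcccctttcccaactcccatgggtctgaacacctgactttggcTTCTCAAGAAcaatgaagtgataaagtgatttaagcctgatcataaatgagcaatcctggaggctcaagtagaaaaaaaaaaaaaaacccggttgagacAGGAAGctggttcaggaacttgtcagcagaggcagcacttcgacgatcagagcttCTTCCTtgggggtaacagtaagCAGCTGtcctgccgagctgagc
Slamf9, chr1:172475110-172475409, plus strand: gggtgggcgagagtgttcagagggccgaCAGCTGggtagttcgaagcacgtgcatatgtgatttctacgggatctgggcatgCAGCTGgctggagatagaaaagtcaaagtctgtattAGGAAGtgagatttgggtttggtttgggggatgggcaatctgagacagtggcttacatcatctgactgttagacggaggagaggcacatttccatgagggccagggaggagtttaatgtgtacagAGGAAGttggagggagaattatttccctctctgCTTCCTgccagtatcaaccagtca
The Slamf6 window holds none of these letters, and 1 CpG. Slamf9 holds 3 matches to AGGAAG, Slamf1 holds 2 and Slamf7 holds 1, and 35.4% of all 32851 windows in the table hold at least 1. The AP-1 letters, in Slamf7, occur in 7.81% of windows, and the STAT letters with a gap of 4 bases, in Slamf1, in 6.95%. CAGCTG, found in Slamf7, Slamf1 and Slamf9, occurs in 16.3%, TGTGGT in 16.8%, and the STAT letters with a gap of 3 bases in 8.3%. The 8 matched members had a median of 3.5 CpGs per window, against 7 over all windows.

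Total expected counts ran from 30.8 to 147.9 M per library, with a median of 46.2 M. The T cell list (6 genes) summed to between 3963 and 6156 TPM in the 8 sorted or unstimulated CD4 T libraries and to 2557 TPM in CD4+ ConA, and the B cell list (6 genes) to between 2251 and 8511 TPM in the activated B cultures. Basophil and mast cell genes summed to 22880 TPM in basophils and to at most 9.56 TPM in the 16 primary B and T libraries. Among the CD4 T libraries, Tfh MUT (682 TPM) and Tfr (490 TPM) held more B cell transcripts than the other 6 sorted or unstimulated libraries (89.6 to 176 TPM). Regulatory T transcripts (Foxp3, Il2ra and Ikzf2) summed to 1041 TPM in Tfr MUT and 863 TPM in Tfr, to 155 TPM in Tfh MUT and 277 TPM in Tfh, to 43.1 TPM in non-Tfh MUT and 24.6 TPM in non-Tfh, and to at most 4.89 TPM in the CD4+ libraries. Their part in the comparisons with Tfh cells was not tested. Ddx3y, a Y-linked gene, was between 27.3 and 103.6 TPM in 7 libraries (LPS+IL21 B, splenic B, basophils, putamen, medulla oblongata, CD4+ ConA and back skin) and at most 0.11 TPM in the other 15. Levels of the members are given as TPM, a unit scaled for transcript length and library total, and in bulk RNA fewer cells of a type and less RNA per cell cannot be told apart.

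**Figure D1:**
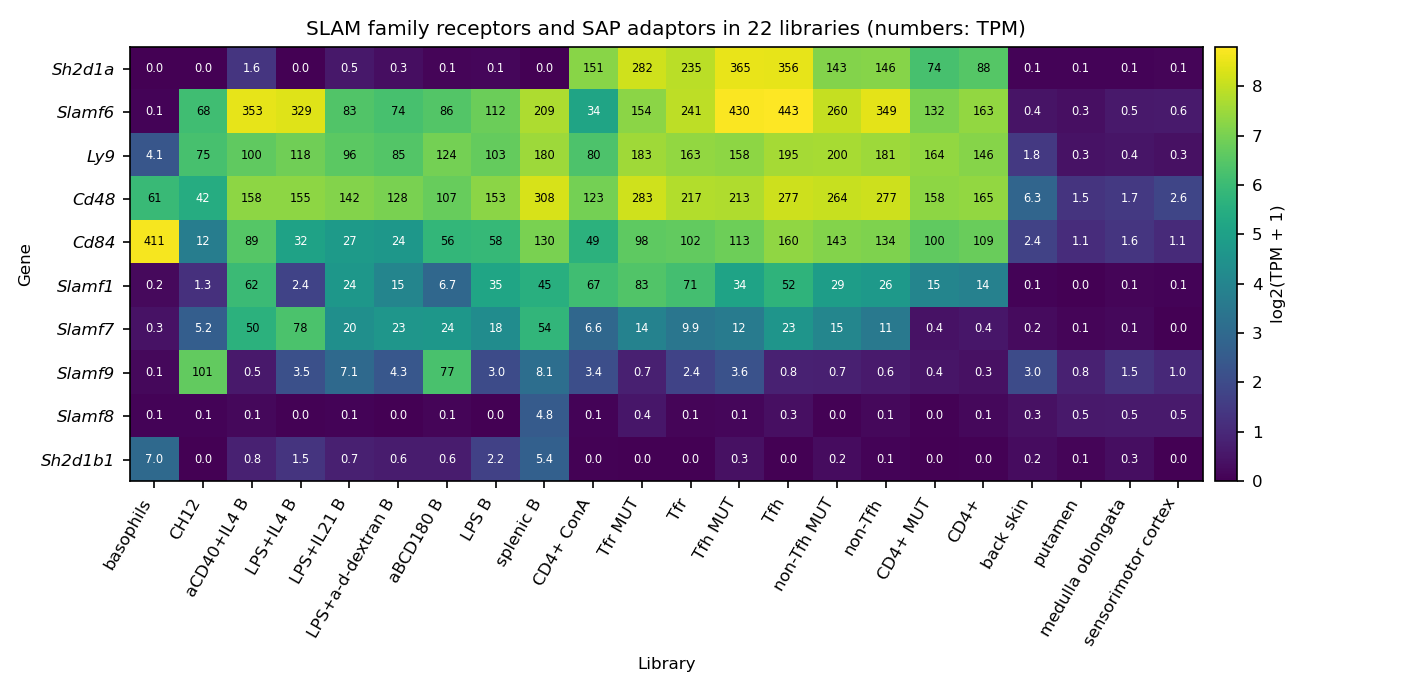
Level of each member gene (rows) in each of the 22 libraries (columns), 1 library per column; colour is log2(TPM + 1) and the printed number is the TPM. Sh2d1a is above 70 TPM in all 9 CD4 T libraries and at most 1.56 TPM elsewhere, Cd84 is highest in basophils at 411 TPM, and Slamf9 stands out in CH12 and aBCD180 B.

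The adaptor SAP marked the T cell lineage. Sh2d1a had 74.1 TPM in CD4+ MUT, the lowest of the 9 CD4 T libraries, and 365 TPM in Tfh MUT, the highest. Among the 7 primary B libraries the highest level was 1.56 TPM, in aCD40+IL4 B, and no count was found in LPS+IL4 B or splenic B. CH12 cells and basophils also had no count. A count of 0 allows up to 0.119 TPM in CH12 and 0.178 TPM in basophils (3 counts per library), so Sh2d1a was at least 620-fold lower in CH12 and at least 417-fold lower in basophils than in CD4+ MUT. The same floor puts it at least 907-fold lower in LPS+IL4 B and at least 909-fold lower in splenic B. These floors cover counting error alone. CH12, LPS+IL4 B and splenic B share a length correction that differs from that of the other B libraries, and CD4+ ConA, with the same correction, had 151 TPM. In aCD40+IL4 B, where Sh2d1a had 23 counts, Cd3e, which encodes a T cell receptor subunit, had 2.12 TPM and 5 of the 6 T cell genes reached 1 TPM, with a sum of 12.1 TPM. The part of other cells in that value was not tested. Splenic B had 11.0 TPM summed over the same genes, but 0.05 TPM of Cd3e, and no Sh2d1a count.

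Slamf7, Slamf9 and the EAT-2 gene Sh2d1b1 were higher in B cells. In the 7 B against the 9 CD4 T libraries, edgeR called 6 of the 9 members it tested, 3 higher in B cells (Slamf7, Slamf9 and Sh2d1b1) and 3 lower (Ly9, Cd84 and Sh2d1a), where 46.4% of all 12437 genes tested were called. The median log2 fold change of the 9 members was -0.35, against 0.01 over all genes. Sh2d1a differed by a log2 fold change of -9.12 ± 0.89 (SE; edgeR adjusted p = 1.667e-06). Sh2d1b1 was higher in B cells by 4.52 ± 0.80 (edgeR adjusted p = 0.000355), at low levels. It lay between 0.59 and 5.41 TPM in the B cell libraries and between 0 and 0.30 TPM in the CD4 T libraries, without overlap. Its neighbour Sh2d1b2 (EAT-2B) was at most 0.15 TPM in any library.

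Slamf7, a receptor known for its action in natural killer and plasma cells, lay between 18.2 and 78.1 TPM in the B cell libraries and between 0.36 and 23.3 TPM in the CD4 T libraries. It was higher in B cells by 2.04 ± 0.62 on the log2 scale (edgeR adjusted p = 0.0139). The lineages overlapped, since Tfh (23.3 TPM) lay above LPS B (18.2 TPM) and LPS+IL21 B (19.9 TPM). The call was lost without LPS+IL4 B, splenic B and CD4+ ConA, a set left out after the data were seen because their length correction differs (log2 fold change 1.5, edgeR adjusted p = 0.0797). Slamf9 was higher in B cells by 3.40 ± 0.89 (edgeR adjusted p = 0.0059), with a range of 0.51 to 76.9 TPM in B cells and 0.31 to 3.65 TPM in CD4 T cells. Without aBCD180 B that fold change was 1.68 (edgeR adjusted p = 0.0501).

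Of the receptors carried by both lineages, Ly9 (CD229) averaged 115 ± 31.4 TPM in B cells (SD, n = 7) and 163 ± 35.9 TPM in CD4 T cells (SD, n = 9). It was lower in B cells, at a log2 fold change of -0.46 ± 0.15 (edgeR adjusted p = 0.022). Cd84 was lower, at -0.88 ± 0.29 (edgeR adjusted p = 0.0193). All B cell libraries but splenic B were cultures. Ly9 had 180 TPM in splenic B, against 146 TPM in CD4+, 164 TPM in CD4+ MUT and 80.2 TPM in CD4+ ConA. Cd84 had 130 TPM in splenic B, against 109 TPM in CD4+, 99.5 TPM in CD4+ MUT and 49.2 TPM in CD4+ ConA. The part of culture or activation in both differences was not tested. Cd48, which encodes a glycolipid-anchored ligand, averaged 164 ± 65.7 TPM in B cells (SD, n = 7) and 220 ± 59.9 TPM in CD4 T cells (SD, n = 9), a difference that did not pass the test (-0.35 ± 0.18, edgeR adjusted p = 0.124). It was called lower in B cells without splenic B, and without LPS+IL4 B, splenic B and CD4+ ConA (-0.61 ± 0.15, edgeR adjusted p = 0.00347), where 61.6% of all genes were called. Slamf1 (CD150) and Slamf6 (Ly108) did not pass it either, with -0.66 ± 0.54 and -0.34 ± 0.43. Across the 16 primary B and T libraries Ly9 and Cd48 varied least among the members, with coefficients of variation of 29.0% and 34.1%, where the median over 8618 genes with a mean of at least 10 TPM was 33.9%. Slamf6 varied by 61.1% and Slamf7 by 93.5%.

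Downstream of the receptors, 12 of the 20 pathway genes tested differed between B and CD4 T cells, where 46.4% of all genes did. Higher in B cells were Cd244 (the CD48 receptor; 3.55 ± 0.54), Plcg2 (a phospholipase of B cell receptor signalling; 3.76 ± 0.48), Ptpn6 (SHP-1; 1.28 ± 0.15), Inpp5d (SHIP-1; 0.78 ± 0.20) and Uvrag (an autophagy factor; 1.03 ± 0.15). Lower in B cells were Fyn (-3.08 ± 0.20), Lck (-3.41 ± 0.38), Plcg1 (-3.27 ± 0.27), Prkcq (protein kinase C theta; -8.01 ± 0.84), Dok2 (-3.31 ± 0.56), Rasa1 (-1.24 ± 0.15) and Cd2 (-2.89 ± 0.53), with edgeR adjusted p between 2.789e-08 and 0.004415 over the 12. Fyn, the kinase recruited by SAP, ranged from 25.9 to 63.1 TPM in B cells and from 195 to 629 TPM in CD4 T cells. Ptpn6 ranged from 369 to 940 TPM in B cells and from 184 to 373 TPM in CD4 T cells.

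Within the CD4 T cells, SAP was highest in the follicular populations. Sh2d1a had 282 TPM in Tfr MUT and 235 TPM in Tfr, 365 TPM in Tfh MUT and 356 TPM in Tfh, 143 TPM in non-Tfh MUT and 146 TPM in non-Tfh, and 74.1 TPM in CD4+ MUT and 88.3 TPM in CD4+. The 4 pairs did not overlap, in the order Tfh, Tfr, non-Tfh and CD4+. Relative to non-Tfh cells it was higher in Tfh cells by 1.16 ± 0.17 on the log2 scale (edgeR adjusted p = 0.0196). It was the 1 member of 9 tested that was called in that comparison, where 6.58% of 13064 genes were called. The call was lost when either non-Tfh library was left out, and edgeR then called fewer of all genes too. Over all alternatives the log2 fold change lay between 1.08 and 1.31. In Tfr against non-Tfh cells Sh2d1a was at 0.65 ± 0.17 (edgeR adjusted p = 0.0575), and in Tfr against Tfh cells at -0.51 ± 0.17 (edgeR adjusted p = 0.375). Neither passed the test.

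Slamf6, a receptor that signals through SAP in the contact of T and B cells, separated the follicular helper from the follicular regulatory cells. It had 154 TPM in Tfr MUT and 241 TPM in Tfr, 430 TPM in Tfh MUT and 443 TPM in Tfh, 260 TPM in non-Tfh MUT and 349 TPM in non-Tfh, and 132 TPM in CD4+ MUT and 163 TPM in CD4+. Both Tfr libraries lay below both Tfh and both non-Tfh libraries, and they overlapped with CD4+. The difference between Tfr and Tfh was -1.28 ± 0.15 on the log2 scale (edgeR adjusted p = 0.0418), the 1 member called of 9, where 0.398% of 13064 genes were called. That call was lost in 7 of 14 alternatives, with values between -1.45 and -1.09. It was lost without the MUT term and when any 1 of the Tfr, Tfr MUT, non-Tfh, non-Tfh MUT, CD4+ or CD4+ MUT libraries was left out. With any of these libraries left out, edgeR called fewer of all genes too. Without the MUT term, however, it called more of all genes (1.06%), and Slamf6 was not among them.

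Slamf1, known as a marker of helper T cell activation, ran in another order. It had 82.9 TPM in Tfr MUT and 71.2 TPM in Tfr, 33.5 TPM in Tfh MUT and 52.2 TPM in Tfh, 29.0 TPM in non-Tfh MUT and 26.3 TPM in non-Tfh, and 15.1 TPM in CD4+ MUT and 13.5 TPM in CD4+. The 4 pairs did not overlap, and Tfr was the highest. In Tfr against non-Tfh cells 2 of the 9 members were called, where 14.6% of 13064 genes were. Slamf1 was higher in Tfr cells by 1.31 ± 0.26 (edgeR adjusted p = 0.0251) and Slamf6 lower, at -0.86 ± 0.15 (edgeR adjusted p = 0.0182). Slamf1 lost the call without non-Tfh, non-Tfh MUT or Tfr MUT (edgeR adjusted p up to 0.185), and Slamf6 without any of these, CD4+ or CD4+ MUT (edgeR adjusted p up to 0.159). With any of those libraries left out, edgeR called fewer of all genes in Tfr against non-Tfh too. In Tfr against Tfh cells Slamf1 was at 0.83 ± 0.26, which did not pass the test (edgeR adjusted p = 0.319).

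**Figure D2:**
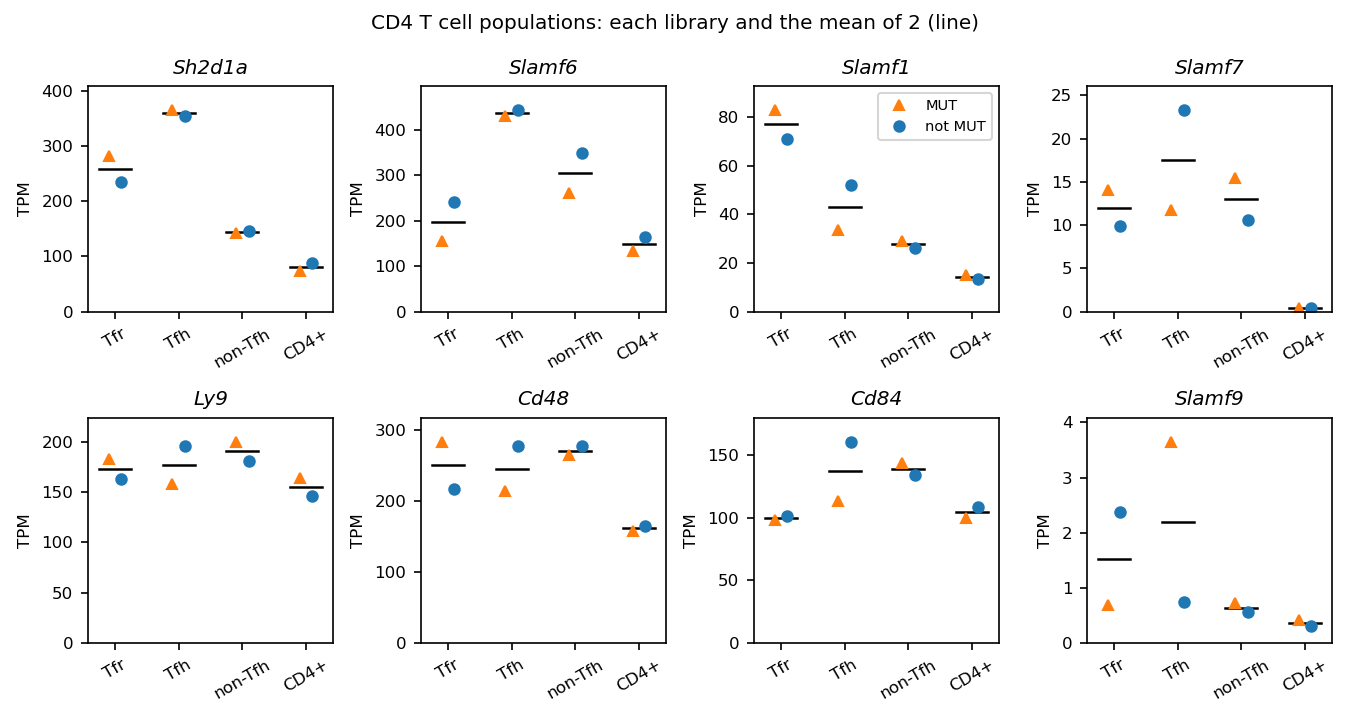
TPM of 8 member genes in the Tfr, Tfh, non-Tfh and CD4+ libraries; triangles are MUT libraries, circles the libraries without that label, and the line is their mean (n = 2). Sh2d1a and Slamf6 peak in Tfh, at 365 and 356 TPM and at 430 and 443 TPM, Slamf1 peaks in Tfr at 82.9 and 71.2 TPM, and Slamf7 is near 0 in CD4+.

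The antigen-experienced populations differed most from CD4+ cells in Slamf7. It had 14.0 TPM in Tfr MUT and 9.94 TPM in Tfr, 11.7 TPM in Tfh MUT and 23.3 TPM in Tfh, and 15.4 TPM in non-Tfh MUT and 10.6 TPM in non-Tfh, against 0.36 TPM in CD4+ MUT and 0.43 TPM in CD4+. The 3 sorted populations overlapped with each other and lay above both CD4+ libraries. The log2 fold change over CD4+ was 4.61 ± 0.51 in Tfr (edgeR adjusted p = 0.0021), 5.17 ± 0.52 in Tfh (edgeR adjusted p = 0.00192) and 4.89 ± 0.51 in non-Tfh cells (edgeR adjusted p = 0.00907). B cell transcripts summed to 138 TPM in Tfr MUT and 490 TPM in Tfr, 682 TPM in Tfh MUT and 176 TPM in Tfh, and 115 TPM in non-Tfh MUT and 110 TPM in non-Tfh, against 95.4 TPM in CD4+ MUT and 89.6 TPM in CD4+. Natural killer transcripts (4 genes) summed to 3.54 TPM in Tfr MUT and 7.0 TPM in Tfr, 15.9 TPM in Tfh MUT and 16.8 TPM in Tfh, and 76.7 TPM in non-Tfh MUT and 52.1 TPM in non-Tfh, against 6.53 TPM in CD4+ MUT and 15.9 TPM in CD4+. The part of either cell type in the Slamf7 level was not tested.

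Against CD4+ cells, the counts of members called were 3 of 9 in Tfr (30.4% of 13064 genes called), 4 of 9 in Tfh (26.4%) and 2 of 9 in non-Tfh cells (3.85%), all higher in the sorted population. In Tfr these were Slamf7, Slamf1 (2.13 ± 0.27, edgeR adjusted p = 0.00319) and Sh2d1a (1.32 ± 0.18, edgeR adjusted p = 0.00396). In Tfh they were Slamf7, Slamf1 (1.30 ± 0.26, edgeR adjusted p = 0.0171), Slamf6 (1.38 ± 0.15, edgeR adjusted p = 0.00263) and Sh2d1a (1.83 ± 0.18, edgeR adjusted p = 0.00178). In non-Tfh cells they were Slamf7 and Slamf6 (0.96 ± 0.15, edgeR adjusted p = 0.0285). Slamf1 lost its call in Tfh without either CD4+ library (edgeR adjusted p up to 0.133). In non-Tfh cells, both calls were lost without either non-Tfh or either CD4+ library (edgeR adjusted p up to 0.358 for Slamf6 and 0.0845 for Slamf7), and that of Slamf6 also without the MUT term (edgeR adjusted p = 0.057). Where leaving out a library lost a call, edgeR called fewer of all genes in that comparison too. Without the MUT term, however, it called more of all genes in non-Tfh against CD4+ cells (5.4%, against 3.85% with it). The 3 comparisons share the CD4+ libraries.

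With all 8 libraries and the MUT term, edgeR called Ly9, Cd48 and Cd84 in none of the 6 comparisons among these populations. Without Tfh it called Ly9 and Cd84, both lower, in Tfh against non-Tfh cells, and without either Tfh library it called Cd84 lower in Tfr against non-Tfh and against CD4+ cells. In each of these comparisons without a Tfh library, edgeR called more of all genes too than with all 8. Without the MUT term Cd84 was called lower in Tfr against non-Tfh cells, where 20.8% of all genes were called, against 14.6% with it. Ly9 lay between 146 and 200.1 TPM in the 8 libraries. Cd48 lay between 157.9 and 283 TPM, with both CD4+ libraries below the other 6. Cd84, a receptor that takes part in helper T cell contact with B cells, lay between 98.0 and 160 TPM, and its largest difference was -0.65 ± 0.18 in Tfr against non-Tfh cells (edgeR adjusted p = 0.0637). DESeq2 called 4 members there, Slamf1 and Sh2d1a higher and Slamf6 and Cd84 lower (25.7% of all genes called), where edgeR called 2. Slamf8 stayed at or under 0.43 TPM in the 8 libraries. Slamf9 was at 3.65 TPM in Tfh MUT and 2.37 TPM in Tfr, the same 2 libraries that held 682 and 490 TPM of B cell transcripts, and between 0.31 and 0.75 TPM in the other 6. The part of B cells in these Slamf9 values was not tested. Sh2d1b1 was left out of the fit for low counts, with at most 0.30 TPM.

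The 6 comparisons were repeated without Tfh MUT and Tfr, the libraries with the most B cell transcripts, a choice made after seeing the data. It leaves 1 library each of Tfr and Tfh, assumed to vary like the others, and 1 residual degree of freedom. Those left, Tfr MUT and unmarked Tfh, differ in MUT label, and the MUT term rests on the non-Tfh and CD4+ pairs alone. For Slamf7, MUT minus unmarked on log2(TPM + 1) was -0.937 in Tfh, 0.455 in Tfr, 0.494 in non-Tfh and -0.072 in CD4+. Of all genes, edgeR then called more in each comparison, and the directions of the members called with all 8 libraries were as before. In Tfr against Tfh, Slamf6 was at -1.15 ± 0.17, and Slamf7 (-1.02 ± 0.26) and Cd84 (-0.64 ± 0.17) were also called, 3 of 9 where 7.71% of genes were. In Tfr against non-Tfh, 5 of 9 were called where 36.9% of genes were, with Slamf1 (1.42 ± 0.13), Sh2d1a (0.92 ± 0.13) and Slamf8 (3.35 ± 1.06, from 25 counts in Tfr MUT) higher and Slamf6 (-0.91 ± 0.13) and Cd84 (-0.59 ± 0.13) lower. In Tfh against non-Tfh, 3 of 9 were called where 24.0% of genes were: Sh2d1a (1.09 ± 0.13), Slamf1 (0.85 ± 0.13) and Slamf7 (0.89 ± 0.19). Over CD4+, the members called were 5 of 9 in Tfr (47.4% of genes), 6 of 9 in Tfh (40.9%) and 6 of 9 in non-Tfh cells (23.4%). Cd48 was then among them in Tfr (0.63 ± 0.12), Tfh (0.48 ± 0.12) and non-Tfh cells (0.62 ± 0.09).

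**Figure D3:**
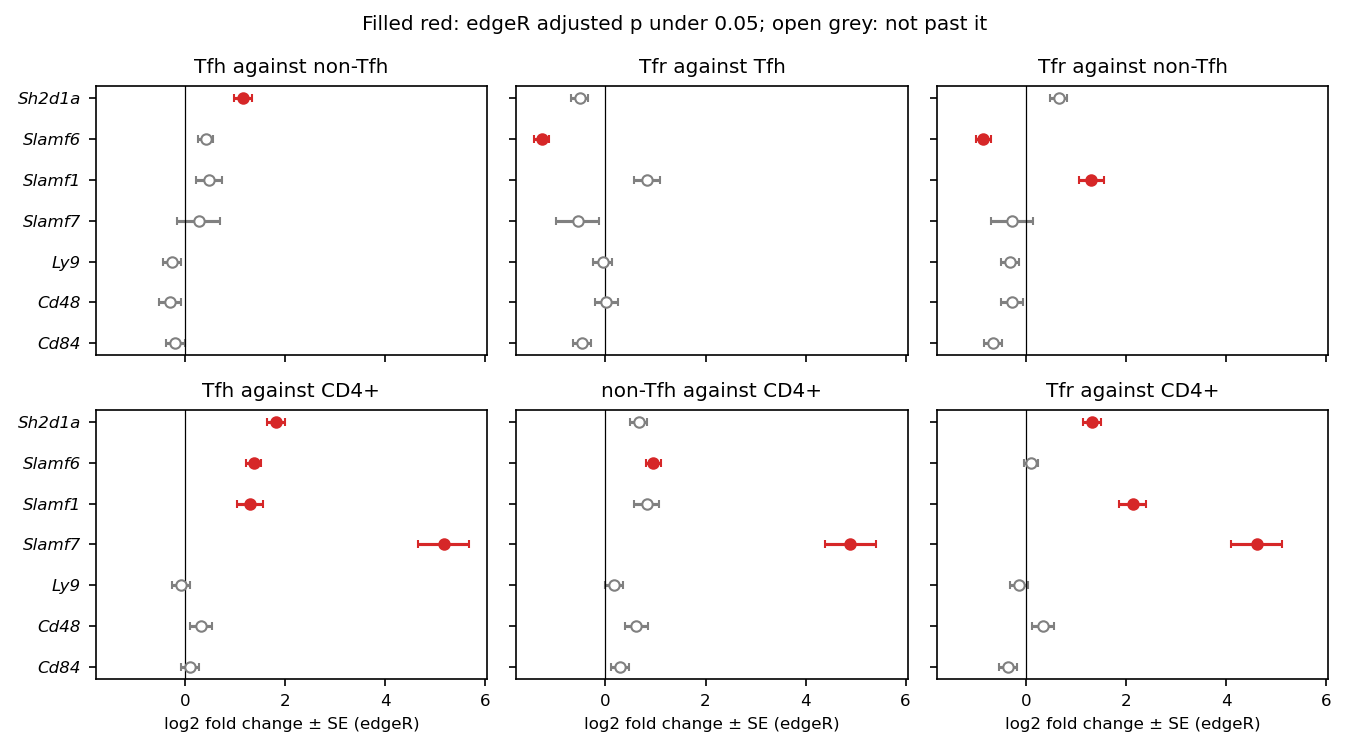
Log2 fold change ± SE from edgeR for 7 member genes in the 6 comparisons among CD4 T populations (first-named population over the second; 2 libraries each); filled red points have an adjusted p under 0.05. Slamf7 lies between 4.61 and 5.17 over CD4+ in all 3 populations, and Slamf6 is the red point below 0 in both comparisons of Tfr with another sorted population.

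Among the pathway genes, Ptpn11 (SHP-2) was the 1 of 20 called in Tfh against non-Tfh cells, at 1.51 ± 0.16 (edgeR adjusted p = 0.0106), with 221 ± 45.5 TPM in Tfh and 68.9 ± 1.68 TPM in non-Tfh cells (SD, n = 2 each). It was also higher over CD4+ in Tfr (1.13 ± 0.16) and Tfh cells (2.02 ± 0.16). Inppl1 (SHIP-2) was higher over CD4+ in Tfr (2.50 ± 0.16), Tfh (2.65 ± 0.16) and non-Tfh cells (2.12 ± 0.15), where it was the 1 pathway gene called. Dok1, an adaptor that restrains tyrosine kinase signals, was higher over CD4+ in Tfr (1.37 ± 0.23) and Tfh (0.93 ± 0.23), and Fyn in Tfh (0.82 ± 0.19). Prkcq, which takes part in SAP-dependent T cell signals, fell in Tfr cells against non-Tfh cells (-1.24 ± 0.15) and against CD4+ cells (-1.36 ± 0.15), and in Tfh against CD4+ cells (-0.65 ± 0.15). Uvrag fell against CD4+ in Tfr (-0.51 ± 0.11) and Tfh cells (-0.49 ± 0.11). In all, 5 of 20 were called in Tfr against CD4+ (3 higher, 2 lower; 30.4% of all genes called) and 6 of 20 in Tfh against CD4+ (4 higher, 2 lower; 26.4%), shares close to those of all genes. There was 1 call, lower, in Tfr against non-Tfh (14.6%) and none by edgeR in Tfr against Tfh (0.398%). In Tfr against Tfh, 3 of 20 had an unadjusted p under 0.05 in edgeR, where 1284 of 13064 genes had. DESeq2 called 3 there, where it called 4.75% of all genes. In each comparison among these populations DESeq2 called more pathway genes, and more of all genes, than edgeR. The edgeR adjusted p of the calls lay between 0.0005677 and 0.0327. Without either non-Tfh library the calls of Ptpn11 in Tfh and Prkcq in Tfr against non-Tfh were lost. Over CD4+ in Tfh, the calls of Fyn, Dok1, Prkcq and Uvrag were lost without either non-Tfh or either CD4+ library, that of Dok1 also without Tfh, and those of Prkcq and Uvrag also without Tfh MUT. Over CD4+ in Tfr, Dok1 was lost without either CD4+ library, Ptpn11 without CD4+, and Uvrag without either Tfr or either CD4+ library. Inppl1 was called over CD4+ in Tfr and Tfh with any 1 library left out, and lost its call in non-Tfh cells without non-Tfh.

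The MUT label was set against its absence over the 4 populations, and edgeR called none of the 9 members, where 0.0% of 13064 genes were called (192 genes had an unadjusted p under 0.05). DESeq2 and limma also called no member. Of the 20 pathway genes, 0 had an unadjusted p under 0.05 in edgeR or limma and 1 in DESeq2, and none of the 3 tools called any. Slamf6 was the 1 member with an unadjusted p under 0.05. It was lower in the MUT library of all 4 pairs, at -0.34 ± 0.11 on the log2 scale (unadjusted p = 0.018, edgeR adjusted p = 0.9999). Its levels were 154 TPM in Tfr MUT and 241 TPM in Tfr, 430 TPM in Tfh MUT and 443 TPM in Tfh, 260 TPM in non-Tfh MUT and 349 TPM in non-Tfh, and 132 TPM in CD4+ MUT and 163 TPM in CD4+. Without Tfh MUT and Tfr, the 2 libraries with the most B cell transcripts, Slamf6 was the 1 member called, at -0.40 ± 0.10 (edgeR adjusted p = 0.0286; 3.57% of genes called), and without the Tfh pair it was at -0.43 ± 0.09 (edgeR adjusted p = 0.183). The set without the Tfh pair, too, was chosen after the data were seen. With Tfh MUT and Tfr left out, the MUT term rests on the non-Tfh and CD4+ pairs alone, with 1 residual degree of freedom. The value of -0.40 for Slamf6 therefore does not cover the Tfh and Tfr pairs. A further edgeR term for the Tfh pair called no member, where 99 of 13534 genes were called. Of the members, 4 of 9 had an unadjusted p under 0.05, where 3214 of the 13534 genes had. Relative to the other 3 pairs, Slamf1 was at -0.91 ± 0.20 (edgeR adjusted p = 0.103) and Slamf7 at -1.47 ± 0.36 (edgeR adjusted p = 0.113). B cell transcripts summed to 682 TPM in Tfh MUT and 176 TPM in Tfh, and their part in this term was not tested.

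ConA-activated CD4+ cells had their own make-up of receptors. Slamf1 had 67.0 TPM in ConA cells, against 15.1 TPM in CD4+ MUT and 13.5 TPM in CD4+. Slamf6 went the other way, with 34.0 TPM in ConA cells, against 132 TPM in CD4+ MUT and 163 TPM in CD4+, and was lower than in any other primary B or T library. As 1 library has no test, a gene counted as past the size rule where log2(TPM + 1) differed by at least 2 in 1 direction from every library on the other side, with at least 10 TPM on the higher side. Against CD4+ and CD4+ MUT, 1 member, Slamf1, was past it (higher, by 2.08 to 2.23), where 3.96% of 19758 genes were. Slamf6 differed by -2.23 and -1.93 and Slamf7 by 2.41 and 2.48, at 6.58 TPM in ConA cells against 0.36 and 0.43 TPM.

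Against the 6 Tfr, Tfh and non-Tfh libraries, 1 member, Slamf6, was past the rule (lower, with differences of -3.66 to -2.15 on the log2(TPM + 1) scale), where 1.38% of 19838 genes were. On TMM-scaled CPM no member was past it. Sh2d1a at 151 TPM lay within the range of those 6 libraries (143 to 365 TPM). Its TPM ratio to Slamf6 was 4.43 in ConA cells and between 0.42 and 1.83 in the other 8 CD4 T libraries. Ly9 (80.2 TPM), Cd48 (123 TPM) and Cd84 (49.2 TPM) were each below all 8. Of the pathway genes, Inppl1 was past the rule against CD4+ (53.7 TPM in ConA cells, against 4.43 and 5.70 TPM), as was Prkcq, lower at 57.2 TPM against 269 and 289 TPM. On TMM-scaled CPM Inppl1 was past the rule and Prkcq was not. The ConA library was among the 7 with Ddx3y, unlike the CD4+ libraries, and carries a length correction that differs from that of the other T libraries. The part of either in these values was not tested.

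Among the activated B cells, the 2 cultures with IL4 shared high Slamf6 and Slamf7. Slamf6 had 353 TPM in aCD40+IL4 and 329 TPM in LPS+IL4, against 83.2 TPM in LPS+IL21, 74.1 TPM in LPS+a-d-dextran, 86.3 TPM in aBCD180 and 112 TPM in LPS. Slamf7 had 49.7 TPM in aCD40+IL4 and 78.1 TPM in LPS+IL4, against 19.9 TPM in LPS+IL21, 23.5 TPM in LPS+a-d-dextran, 24.4 TPM in aBCD180 and 18.2 TPM in LPS. The groups did not overlap in either gene, and the lower IL4 culture was 2.93-fold above the highest of the other 4 for Slamf6 and 2.04-fold for Slamf7. In a fit with IL4 and LPS as terms, edgeR called none of the 8 members tested, where 0.04% of 12515 genes were called. Slamf6 was at 1.91 ± 0.25 on the log2 scale (unadjusted p = 0.0001947, edgeR adjusted p = 0.115) and Slamf7 at 1.65 ± 0.30 (unadjusted p = 0.001074, edgeR adjusted p = 0.212), and no other member had an unadjusted p under 0.05. DESeq2 called both (adjusted p = 1.046e-07 and 0.002668), and 3.7% of all genes, and limma called neither.

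Slamf1 divided the IL4 cultures. It had 62.1 TPM in aCD40+IL4 and 2.39 TPM in LPS+IL4, the highest and the lowest of the 6 cultures, with 6.67 to 35.0 TPM in the other 4. In aCD40+IL4 against LPS+IL4, 1 member, Slamf1, was past the size rule (higher, by 4.22), where 3.66% of 16037 genes were. Cd84 was at 88.9 TPM in aCD40+IL4, against 32.4 TPM in LPS+IL4, a difference of 1.43. The pathway adaptor Dok2 was past the rule in the same pair, with 42.0 TPM in aCD40+IL4 against 4.03 TPM in LPS+IL4. In LPS+IL4 against LPS, 2 members were past the rule, where 2.3% of 15967 genes were. Slamf7 was higher by 2.04, and Slamf1 was lower, by a difference of -3.41, at 2.39 TPM in LPS+IL4, against 35.0 TPM in LPS. LPS+IL4 carries the separate length correction, whose part in these values was not tested.

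The other additions to LPS took few of all genes past the size rule, so a count of 0 members says little about the members. In LPS+IL21 against LPS, 0 members were past the rule, where 0.774% of 15120 genes were. In LPS+a-d-dextran against LPS, 0 were past it, where 0.49% of 15314 genes were. The largest differences were in Cd84, with 26.8 TPM in LPS+IL21 and 24.2 TPM in LPS+a-d-dextran, against 58.0 TPM in LPS, and in Slamf1, with 14.9 TPM in LPS+a-d-dextran against 35.0 TPM in LPS. Cd2 (11.0 TPM in LPS+a-d-dextran, against 65.9 TPM in LPS) and Dok2 (1.83 TPM in LPS+IL21, against 14.2 TPM in LPS) were the pathway genes past the rule, both lower.

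**Figure D4:**
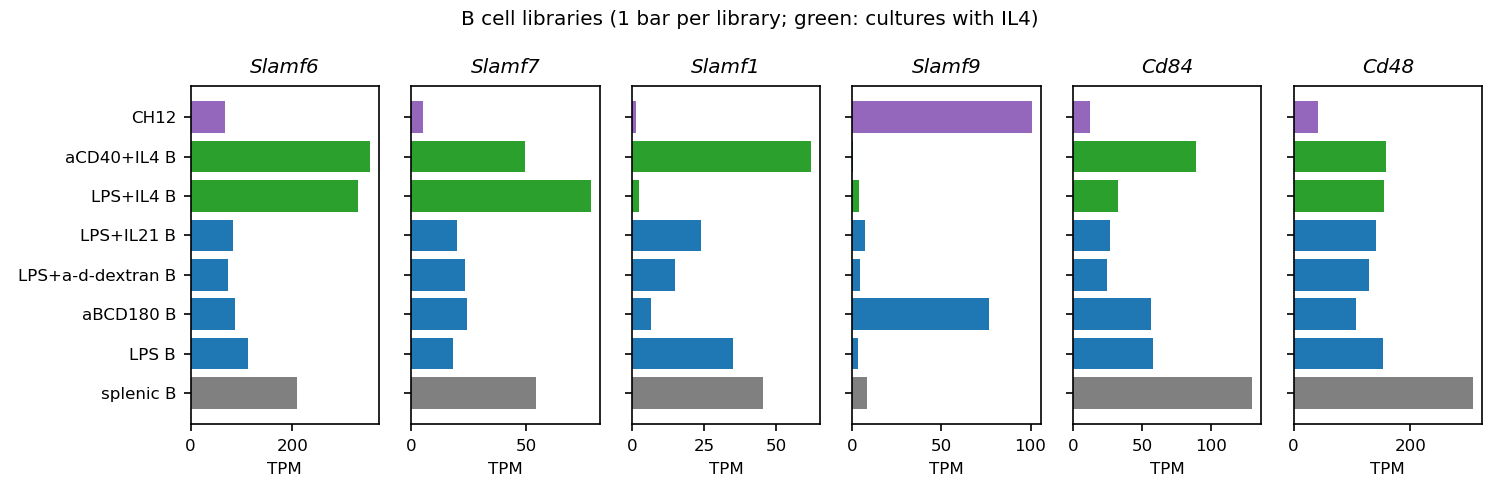
TPM of 6 receptor genes in CH12 cells, the 6 activated B cultures and splenic B cells, 1 bar per library; green bars are cultures with IL4. Both green bars exceed the other cultures for Slamf6 (353 and 329 TPM) and Slamf7 (49.7 and 78.1 TPM), and Slamf9 is high in CH12 (101 TPM) and aBCD180 (76.9 TPM).

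Slamf9, a receptor whose cytoplasmic tail is short and lacks the SAP-binding motif, was abundant in a pair of libraries. It had 101 TPM in CH12 and 76.9 TPM in aBCD180 B, with 3580 and 1963 counts, and 8.14 TPM in splenic B, the next of the 22. The other 5 cultures had between 0.51 and 7.10 TPM. In aBCD180 against LPS, 2 members were past the size rule, where 0.719% of 15586 genes were. Slamf9 was higher by 4.27, at 76.9 TPM in aBCD180 against 3.04 TPM in LPS. Slamf1 was lower, by a difference of -2.23, at 6.67 TPM in aBCD180 against 35.0 TPM in LPS.

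CH12 cells had less of most other receptors than the primary cultures. Slamf1 had 1.33 TPM in CH12, against 2.39 to 62.1 TPM in the 6 cultures. Cd48 had 42.0 TPM in CH12, against 107 to 157.6 TPM, and Slamf7 had 5.18 TPM, against 18.2 to 78.1 TPM. Cd84 (12.1 TPM), Ly9 (75.0 TPM) and Slamf6 (67.7 TPM) were also below all 6 cultures, and Slamf9 was above all 6. No member was past the size rule, where 1.93% of 17265 genes were. Cd2 was, with 0.06 TPM in CH12, against 11.0 to 145 TPM in the cultures, but not on TMM-scaled CPM.

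Activated cultures lay below splenic B cells in Cd48, Ly9 and Cd84. Cd48 had 107 to 157.6 TPM in the 6 cultures, against 308 TPM in splenic B, the highest Cd48 level of the 22 libraries. Ly9 had 84.9 to 124 TPM in the cultures, against 180 TPM in splenic B, and Cd84 had 24.2 to 88.9 TPM, against 130 TPM. Slamf1, Slamf6, Slamf7 and Slamf9 in splenic B lay within the range of the cultures. No member was past the size rule, where 0.809% of 17299 genes were. The smallest differences, splenic B minus a culture on the log2(TPM + 1) scale, were 0.96 for Cd48, 0.53 for Ly9 and 0.54 for Cd84. Splenic B was among the 7 libraries with Ddx3y, and of the cultures only LPS+IL21 was. It carries the separate length correction, which of the cultures only LPS+IL4 does. Macrophage transcripts were also higher in splenic B than in any culture. The part of these in the Cd48, Ly9 and Cd84 levels was not tested.

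Slamf8 and Sh2d1b1, known from macrophages and other myeloid or innate cells, were also above all cultures in splenic B. Slamf8 had at most 0.14 TPM in the cultures, against 4.76 TPM (450 counts) in splenic B, the 1 library of 22 in which it reached 1 TPM. Sh2d1b1 had 0.59 to 2.22 TPM in the cultures, against 5.41 TPM in splenic B, and Cd244 had 0.42 to 4.63 TPM, against 6.86 TPM. The macrophage list (7 genes) summed to between 10.5 and 49.7 TPM in the cultures, with 2 or 3 genes at 1 TPM or more, against 292 TPM in splenic B, with 6. Csf1r, which encodes the macrophage growth factor receptor, was at 60.5 TPM and C1qa at 79.7 TPM in splenic B. Their part in the Slamf8, Sh2d1b1 and Cd244 levels was not tested. In the 3 brain regions and back skin, where the same list summed to between 316 and 454 TPM, Slamf8 was between 0.32 and 0.54 TPM. The list covers macrophages and microglia (Tmem119 and P2ry12 among them), so like sums in spleen and brain need not mean the same cells.

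Basophils had a receptor set built on Cd84. Cd84 had 411 TPM in basophils (29184 counts), against 24.2 to 160 TPM in the 16 primary B and T libraries, and made up 86.3% of the summed TPM of the 8 receptors. Cd48 followed with 60.5 TPM, below all 16. Slamf6 had 0.06 TPM (3 counts) in basophils, against 34.0 to 443 TPM, and Ly9 had 4.14 TPM, against 80.2 to 200.1 TPM. These 2 members were past the size rule, both lower, where 2.26% of 20008 genes were. Cd84 itself was above every lymphocyte library by 1.35 to 4.03 on the log2(TPM + 1) scale and so was not past it. Slamf1 (0.16 TPM) and Slamf7 (0.34 TPM) were below all 16.

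The adaptors of the basophil library were of the EAT-2 kind. Sh2d1b1 had 6.97 TPM (210 counts) in basophils, the highest of the 22 libraries, with a 95% Poisson interval of 6.05 to 7.97 TPM that covers counting error alone. Sh2d1a and Sh2d1b2 had no count. Cd244 had 19.5 TPM in basophils, against 0.05 to 6.86 TPM in the 16 lymphocyte libraries. Lck had 0.62 TPM and Cd2 0.13 TPM in basophils, both past the rule and lower (on TMM-scaled CPM, Lck was and Cd2 was not), while Fyn had 77.8 TPM. Of the T cell list, 1 gene reached 1 TPM in basophils, Lat at 239 TPM, while Cd3e was at 0.03 TPM and Cd5 had no count. Macrophage genes summed to 352 TPM in basophils, of which Adgre1 gave 278 TPM and Csf1r 39.5 TPM, and C1qa was at 0.67 TPM. Their part in the Cd84, Cd244 and Sh2d1b1 levels was not tested.

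**Figure D5:**
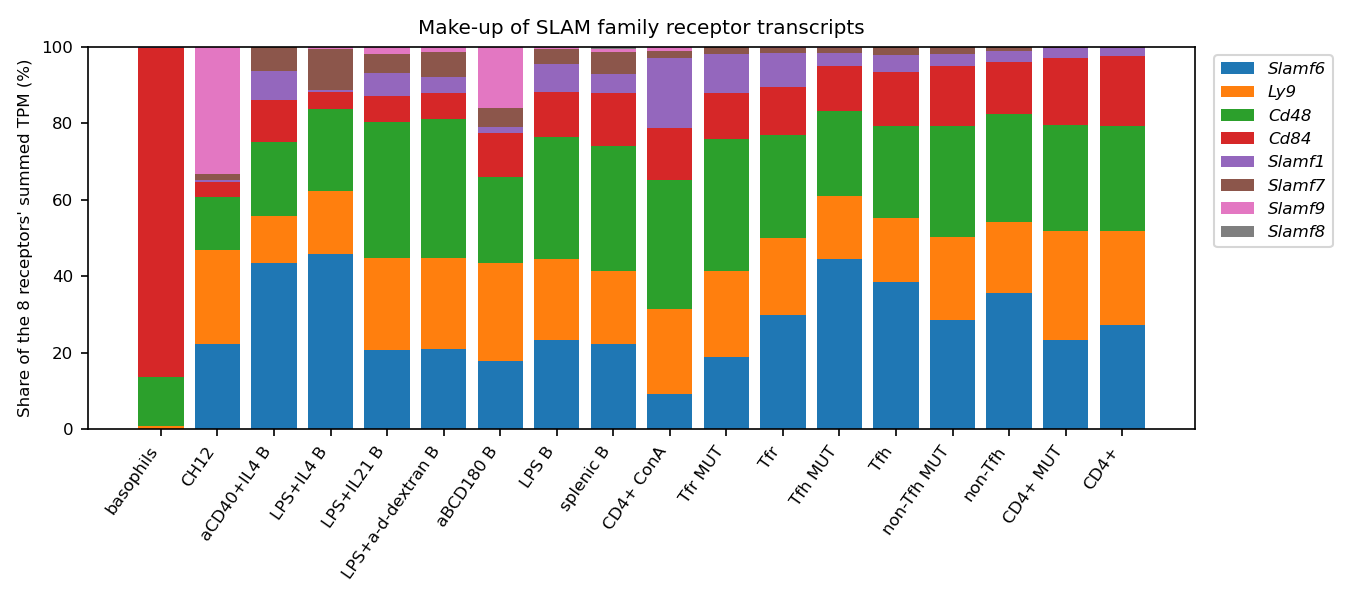
Share of each of the 8 receptors in their summed TPM, for the 18 blood cell libraries (1 bar per library). Cd84 makes up 86.3% in basophils, Slamf9 33.1% in CH12, and Slamf6 45.8% in LPS+IL4 B and 9.35% in CD4+ ConA.

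Summed over the 8 receptors, the family ran from 304 TPM in CH12 to 1153 TPM in Tfh among the 18 blood cell libraries. Back skin had 14.4 TPM, and the brain regions between 4.6 and 6.5 TPM. Slamf6 made up 44.6% of the sum in Tfh MUT and 38.4% in Tfh, against 28.5% in non-Tfh MUT and 35.6% in non-Tfh. Its share was 18.9% in Tfr MUT and 29.9% in Tfr. Sh2d1a TPM relative to the receptor sum was 34.5% in Tfr MUT and 29.1% in Tfr, 37.9% in Tfh MUT and 30.8% in Tfh, 15.7% in non-Tfh MUT and 14.9% in non-Tfh, and 13.0% in CD4+ MUT and 14.8% in CD4+. The 4 non-Tfh and CD4+ libraries lay between 13.0% and 15.7%, below all 4 follicular libraries. CD4+ ConA, at 41.4%, was above all of them. The sum includes Cd48, which encodes a glycolipid-anchored protein, and Slamf9, which lacks the SAP-binding motif. Cd48 made up between 22.1% (Tfh MUT) and 34.7% (Tfr MUT) of the sum in the CD4 T libraries. These ratios are a description with no test.

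The patterns of the members across all 22 libraries were set beside those of 13896 genes with a highest level of at least 10 TPM, by Pearson's r of log2(TPM + 1). Sh2d1a was most like Cd3d (0.992), Cd3e (0.991) and Cd3g (0.988). Cd48 was most like Ptprc, which encodes CD45 (0.986), Gimap5 and Gimap1, and Cd84 most like Tln1 (0.983), Rin3 and Cklf. Slamf6 was most like Lax1 (0.967), Gimap6 and Ly9 (0.961), the 1 member that appeared among the 3 nearest genes of another. Ly9 was most like Armc10 (0.969), Tmco4 and Fam169b, Slamf1 most like Gimap7 (0.92), Gimap3 and Gbp5, and Slamf7 most like Pou2f2 (0.91), Cxcr5 and Pou2af1. For Slamf9 the 3 nearest genes were Alg13 (0.817), Pgm3 and Trmt10a, and no member reached 0.31 with it, since its highest values were with Slamf7 (0.309) and Ly9 (0.176). The libraries are of a few shared lineages and differ in depth, and the values describe the samples and carry no test.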

How the data were processed

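The libraries were made from poly(A) RNA, per the labels' protocols from 0.5 M cultured cells, with 50 sequencing cycles. Tools named in the submitters' processing notes are STAR, RSEM, bedtools and CASAVA 1.8.2, with the build mm10. Their roles and settings are not given in the sources used here. The deposited expected counts are estimated reads per gene, not normalized, per the file headers. TPM were scaled by the authors for transcript length and library total, per the file headers. Length minus effective length was 49.0 in LPS+IL4 B, splenic B, CD4+ ConA and CH12, and between 48.56 and 48.57 in the other 18 libraries. A gene at 0 in all of those 4 and present in all other 18 would be uncertain, and no member was.

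Expected counts were rounded (86.1% of those above 0 were whole within 1e-09) and fitted with the quasi-likelihood F-test of edgeR 4.0.16 (R 4.3.3) after TMM scaling and filterByExpr. P-values were adjusted by Benjamini-Hochberg over every gene in the fit, with a threshold of 0.05. The 8 libraries of the 4 CD4 T populations were fitted with population and MUT label as terms, the 6 activated B cultures with IL4 and LPS, and 7 primary B libraries were set against 9 CD4 T libraries. Values after ± are the SE of a log2 fold change or, for levels, the SD over libraries. Single libraries were read by the size rule given in the text. Gene names and promoter windows came from RefSeq tables of GRCm38.p6. Scripts were tested on simulated data. The fits were repeated with DESeq2 1.42.0, with limma 3.58.1 on log2(TPM + 1), without the filter, with RLE size factors, without the MUT term and with each library left out, and the size rule with a difference of 1, a pseudocount of 0.1, a minimum of 1 TPM and TMM-scaled CPM. Tables and figures used pandas 2.3.3 and matplotlib 3.10.9.

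All members, 21 pathway genes, and the 3 genes most like each member whose highest TPM was at least 10 were named. The members and lists were chosen with earlier results of these data known.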

Additional observations from a re-analysis of the deposited data

How the results depend on the processing

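Of 170 counts of members recomputed under alternatives, 127 stayed within 1.5 times the reported count. Of 314 recomputed values of the 19 calls of single genes, 284 kept the call, 30 lost it and 0 changed sign. With each library left out in turn, the members called ranged from 0 to 4 in Tfr against non-Tfh, from 0 to 2 in Tfr against Tfh, from 0 to 4 in Tfh against non-Tfh, from 3 to 4 in Tfr, 3 to 5 in Tfh and 0 to 3 in non-Tfh cells against CD4+, and from 5 to 7 in B against CD4 T. In the same fits the share of all genes called ran from 0.593% to 30.7%, 0.0% to 3.4% and 0.0% to 26.4% for the 3 comparisons between sorted populations in that order, from 8.06% to 43.5% in Tfr, 5.72% to 40.3% in Tfh and 0.229% to 8.96% in non-Tfh against CD4+, and from 40.1% to 53.7% in B against CD4 T. For the MUT label and IL4 the count was 0 in each, in fits that called at most 0.216% and 0.52% of all genes and so say little on stability. DESeq2 called 4 members in Tfr against non-Tfh (25.7% of all genes), 4 in non-Tfh against CD4+ (9.22%) and 2 for IL4 (3.7%). Without the MUT term, 0 were called in Tfr against Tfh (1.06%), 4 in Tfr against non-Tfh (20.8%) and 1 in non-Tfh against CD4+ (5.4%). Without Tfh MUT and Tfr, chosen after seeing the data, 3 were called in Tfr against Tfh, 5 in Tfr against non-Tfh, 3 in Tfh against non-Tfh, 5 in Tfr and 6 in non-Tfh against CD4+, and 1 for the MUT label; each population with 1 library left was assumed to vary like the others. At a log2 difference of at least 1, the size rule took in 3 members for ConA against CD4+ (13.4% of all genes). It took in 2 for CH12 (4.46%), 1 for LPS+IL21 (3.74%), 2 for LPS+a-d-dextran (4.11%) and 2 for aCD40+IL4 (13.6%). Each of these shares of all genes was above that under the main rule. At a minimum of 1 TPM it took in 2 for ConA against CD4+ (4.975%) and 1 for splenic B (Slamf8; 1.21%). On TMM-scaled CPM it took in 2 for ConA against CD4+ (5.10%) and 0 against the 6 sorted libraries (1.75%). The cause of these changes was not tested. The median log2 difference over all genes was at most 0.03 in edgeR for the T populations, but on log2(TPM + 1) it was 0.16 in Tfr and 0.14 in Tfh against non-Tfh, and 0.25 in Tfr and 0.24 in Tfh against CD4+, where Ly9 was at 0.16 and 0.18 and edgeR gave -0.14 and -0.08. The MUT comparison was made within populations, through the population term. No further block could be added, because the labels give no replicate numbers. With 1 library per group, members under 1 TPM (Slamf8 and Sh2d1b1 in T cells) rest on at most 25 counts.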
